A study of Homo sapiens with 10 samples.

Results

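The genes described here are 10 genes of the actin cytoskeleton and of smooth muscle, ACTA2, TAGLN, CNN1, CNN2, CNN3, TPM1, TPM2, TPM4, MYL9 and SRF, taken by name from the 61533 genes counted in RNA-seq libraries of bladder cancer cells. T24 is a human bladder cancer cell line that is sensitive to cisplatin, and T24R2 is the resistant line made from it by serial exposure to the drug. Each line had 5 libraries, all from day 3 of culture, in the same medium by the sample labels. The methods of the study state that T24R2 was kept in medium with cisplatin, whereas the labels list no drug, so a difference between the lines and an effect of the drug in the medium cannot be told apart. T24R2 is a derived line of its parent and each replicate is a library of the same line. The sources used here do not say that replicates were separate cultures, so p-values measure the spread between these libraries, which may be technical.

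Actin filaments give a cell its shape and tension. Tropomyosins lie along the filament and calponins and transgelin bind its side, while myosin, switched on through its regulatory light chains, pulls on it. Several of these genes carry CArG boxes, the A/T-rich element bound by the transcription factor SRF. SRF works with actin-sensing partners of the MRTF family, with myocardin, or with the ELK factors. ACTA2, TAGLN, CNN1 and MYL9 are classical genes of contractile smooth muscle and of activated fibroblasts, whereas TPM4, CNN2 and CNN3 are widely expressed in non-muscle cells.

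The expression data alone do not show which of these genes have CArG boxes near their starts, so the RefSeq promoter windows of GRCh38.p14 were read, each covering 250 bases before a start to 50 after it. Of the 14 windows found for 8 of the 10 genes, 3 held a CArG box, or 21.4%, against 1.29% of all 35116 windows (454 windows). With 1 mismatch allowed in the central 6 bases the counts were 4 of 14 and 2854 of 35116 (8.13%). TATAAA, on either strand, was in 1 of the 14 windows, that of SRF, and in 11.5% of all windows. These genes are known for such elements, so the share is a description of the set and a match is not a bound site. TAGLN and MYL9 were not among the windows, and those of CNN1, CNN3, TPM1 and TPM2 held no match. The stretches with a match are printed here 5′ to 3′ on the strand of the gene, with the CArG box, or the box with 1 mismatch, in capitals. The SRF, ACTA2 and TPM4 stretches each belong to 1 of several starts listed for the gene. All 5 stretches are shown because SRF itself is in the set: SRF was higher in T24R2, ACTA2 lower, and CNN2 and TPM4 not called, as the values that follow show.
SRF (chr6:43171239-43171268, + strand, 2 boxes that begin 30 and 10 bases before the start): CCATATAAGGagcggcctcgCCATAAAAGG
ACTA2 (chr10:88952875-88952904, - strand, 1 mismatch, 121 bases before the start): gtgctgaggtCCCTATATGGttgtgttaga
ACTA2 (chr10:88952825-88952854, - strand, 1 mismatch, 71 bases before the start): tgtctttgctCCTTGTTTGGgaagcaagtg
CNN2 (chr19:1026509-1026538, + strand, 89 bases before the start): cgcctccaggCCTTATAAGGacatttgcgc
TPM4 (chr19:16067355-16067384, + strand, 173 bases before the start): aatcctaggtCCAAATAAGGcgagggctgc

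Libraries held 9257843 to 10247941 counted fragments in T24 and 9591379 to 10840954 in T24R2, and mitochondrial genes took 2.35% to 2.97% of them. Values are given as CPM (counts scaled to TMM-adjusted library size), as mean ± SD of 5 libraries. The quasi-likelihood test of edgeR compared T24R2 with T24 over the 16181 genes with enough counts. A call needed a Benjamini-Hochberg adjusted p under 0.05 together with a log2 fold change beyond 0.5 in either direction. The lines differed widely, with 4027 genes called higher in T24R2 (24.9%) and 4282 called lower (26.5%), or 51.4% in either direction. The median log2 fold change of all tested genes was 0.01. Both lines expressed the epithelial keratins KRT7, KRT8 and KRT18. Apart from KRT19, GATA3 and PPARG, the other markers of the urothelial and epithelial list had means under 10 CPM in both lines. KRT7 was at 2242 ± 70.2 CPM in T24 and 1370.0 ± 64.6 in T24R2, KRT8 at 1541 ± 121 and 1009 ± 14.1, and KRT18 at 1112 ± 87.7 and 691 ± 30.3. Several urothelial markers were at or near 0 in both lines (KRT20, CDH1, KRT5 and UPK1B), and KRT19 went from 267 to 0.0887 CPM, GATA3 from 22.1 to 0.214 and PPARG from 75.9 to 26.2. All 8 markers of this list that were tested were called lower in T24R2.

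Of the 10 genes, 9 were tested, and CNN1 had too few counts. SRF was called higher in T24R2, ACTA2, TAGLN and MYL9 were called lower, and TPM1, TPM2, TPM4, CNN2 and CNN3 were not called. The 4 called genes are 44.4% of the 9, against 51.4% of all tested genes, a share near, and a little under, the background. The 5 libraries of one line lay entirely above or below those of the other for 5 of the 9 genes (1 above and 4 below), where 61.2% of all tested genes did so, with 29.9% above and 31.3% below. The median log2 fold change of the 9 was -0.07. The members differed in size and direction, with T24R2 means that ran from 8.41% of the T24 level for ACTA2 to 101% for TPM4 and 156% for SRF.

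**Figure D1:**
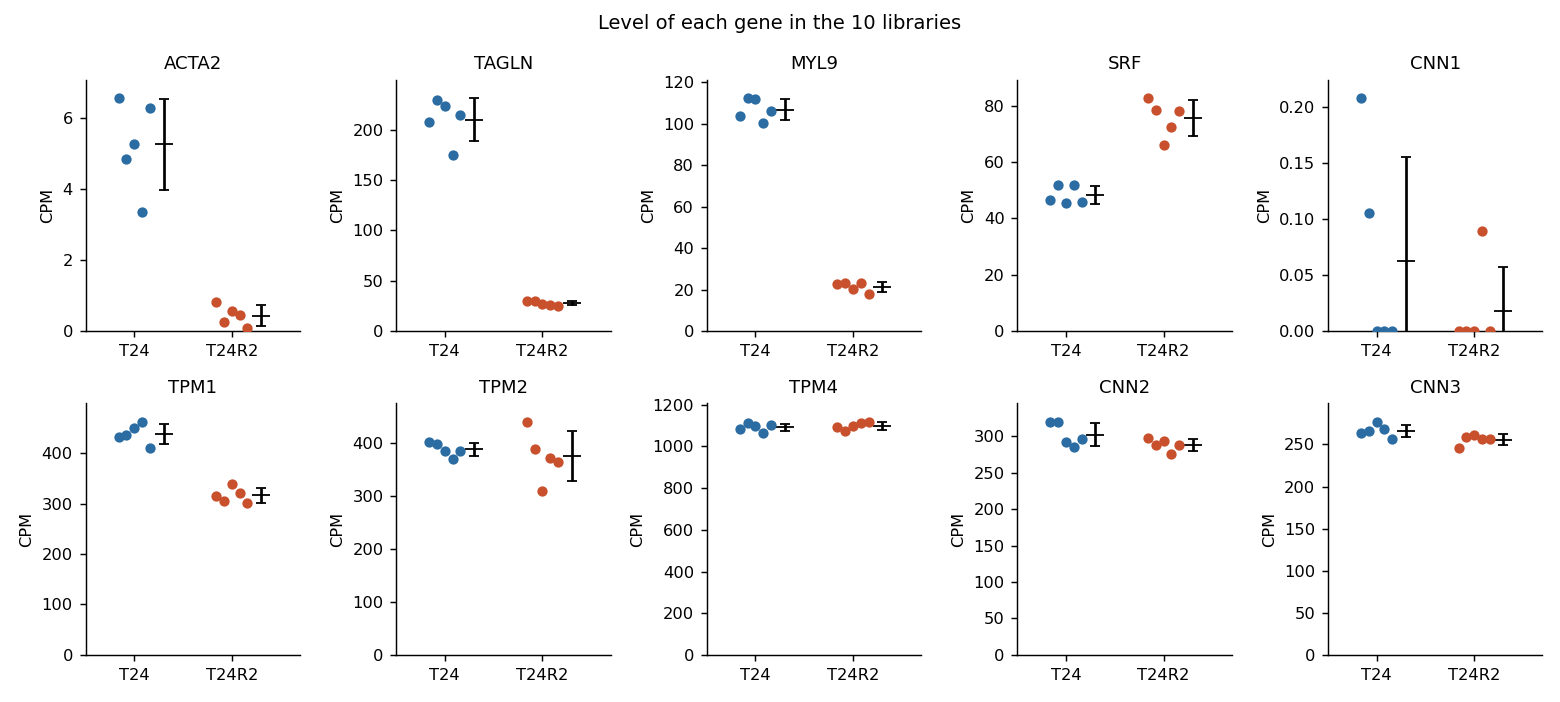
CPM (y axis, from 0) of each gene in the 5 T24 libraries (blue) and the 5 T24R2 libraries (red), with the mean and SD beside the points. ACTA2, TAGLN, MYL9 and TPM1 lie lower in every T24R2 library and SRF higher, while TPM2, TPM4, CNN2 and CNN3 overlap and CNN1 is at 0 in 7 of 10 libraries.

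ACTA2 encodes smooth muscle alpha-actin, the actin of contractile smooth muscle and of myofibroblasts (ENSG00000107796.13, chromosome 10 of hg38, 88935074 to 88991339, minus strand). Its level was low in T24, at 6.54, 4.84, 5.26, 3.33 and 6.26 CPM in replicates 1 to 5, and lower in T24R2, at 0.826, 0.260, 0.576, 0.445 and 0.0983 CPM. The lines did not overlap. The log2 fold change was -3.53 ± 0.33 (SE), with an adjusted p of 1.4e-12 by the edgeR quasi-likelihood test. These values rest on 244 counts over the 5 T24 libraries and 24 over the T24R2 libraries (1 to 9 in each), which is why the error is the widest of the set. In a bulk library, fewer cells with a transcript and less of it per cell cannot be told apart.

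TAGLN encodes transgelin, or SM22-alpha, a calponin-related protein that binds and gels actin filaments and marks smooth muscle early (ENSG00000149591.17, chromosome 11, 117199370 to 117207464, plus strand). In T24 it stood at 207, 229, 223, 175 and 214 CPM. All 5 T24R2 libraries were close together at 30.1, 30.1, 27.1, 26.3 and 25.3 CPM, and the mean of T24R2 was 13.2% of that of T24 (209.6 ± 21.3 against 27.8 ± 2.22). TAGLN fell by 2.91 on the log2 scale (SE 0.07, adjusted p = 2.4e-32 by the edgeR quasi-likelihood test), a 7.55-fold difference of the means.

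MYL9 encodes the regulatory light chain of smooth muscle and nonmuscle myosin II, the chain that myosin light chain kinase phosphorylates (ENSG00000101335.10, chromosome 20, 36541497 to 36551447, plus strand). It was measured at 104, 112, 112, 100.2 and 106 CPM in T24 and at 22.8, 23.1, 20.3, 23.3 and 17.7 CPM in T24R2. The lines were far apart and each was narrow, with means of 107 ± 5.25 and 21.4 ± 2.40 CPM. The difference was 4.98-fold, or -2.31 on the log2 scale (SE 0.07, adjusted p = 1.5e-28, edgeR quasi-likelihood test). MYL9 shares no exon bases with a neighbouring gene, unlike ACTA2 and TAGLN.

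SRF, the transcription factor, went the other way (ENSG00000112658.8, chromosome 6, 43171269 to 43181506, plus strand). T24 libraries had 46.6, 51.9, 45.6, 51.9 and 45.9 CPM. T24R2 libraries had 82.6, 78.6, 66.1, 72.4 and 78.3 CPM, all above the highest T24 library. SRF rose by 0.64 on the log2 scale (SE 0.06, adjusted p = 1.0e-11, edgeR quasi-likelihood test), from 48.4 ± 3.24 to 75.6 ± 6.42 CPM, or 1.56-fold. 

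TPM1 encodes a tropomyosin, with muscle and nonmuscle forms from the same gene (ENSG00000140416.23, chromosome 15, 63042632 to 63071915, plus strand). Levels were 431, 436, 449, 461 and 409.7 CPM in T24 and 314, 306, 339, 321 and 300.1 CPM in T24R2. No T24R2 library reached the lowest T24 library, and the log2 fold change was -0.47 ± 0.04 (adjusted p = 2.0e-12, edgeR quasi-likelihood test), just short of the 0.5 a call required. By p alone TPM1 passes, as did 75.5% of all tested genes. For ACTA2, TAGLN, MYL9, SRF and TPM1 the exact two-sided permutation test of CPM gave p = 0.00794, the smallest that 5 libraries against 5 allow.

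TPM2, the tropomyosin also called beta, was spread more widely in T24R2 than in T24 (ENSG00000198467.16, chromosome 9, 35681992 to 35690056, minus strand). In T24 it had 403, 398, 385, 370.4 and 385 CPM, and in T24R2 439.6, 389, 309, 372 and 364 CPM. Replicate 1 of T24R2 was thus above every T24 library and replicates 3 and 5 below every one. Replicate 3 had the highest mitochondrial share of the 10 libraries (2.97%) and replicate 5 had 2.58%, and the part of this share in the spread was not tested. The log2 fold change was -0.05 with a 95% interval of -0.16 to 0.06 (adjusted p = 0.41, edgeR quasi-likelihood test). It was -0.11 without replicate 1 of T24R2 and 0.02 without replicate 3, and the gene was not called in either case.

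TPM4, a nonmuscle tropomyosin (ENSG00000167460.17, chromosome 19, 16067021 to 16103002, plus strand), had the narrowest values of the set relative to its level. Its T24 libraries had 1085, 1112, 1098, 1066 and 1101 CPM, and its T24R2 libraries 1094, 1072, 1099.7, 1112 and 1117 CPM. The lines overlapped almost entirely, with a log2 fold change of 0.01 and a 95% interval of -0.07 to 0.08 (adjusted p = 0.84, edgeR quasi-likelihood test). A difference as large as that of TPM1 lies outside this interval. The interval covers the spread between libraries and not the choice of scaling. With no scaling beyond library size TPM4 was at 0.17 (adjusted p = 4.6e-05, edgeR quasi-likelihood test), above the interval but not called. The median of all genes moved to 0.18 in that setting.

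The calponins bind actin and calmodulin and differ by tissue, with CNN1 in smooth muscle and CNN2 and CNN3 in many other cells. CNN1 (ENSG00000130176.8, chromosome 19, 11538767 to 11550323, plus strand) had 0 to 2 counts in each T24 library and 0 to 1 in each T24R2 library, at or under the floor of 3 counts per library in both lines. No fold is given for it, and at this depth 3 counts correspond to 0.260 to 0.343 CPM. Floors cover counting error only.

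CNN2 (ENSG00000064666.15, chromosome 19, 1026586 to 1039068, plus strand) had 319, 319, 292, 285 and 296 CPM in T24 and 298, 287, 293, 275.5 and 287 CPM in T24R2. CNN3 (ENSG00000117519.16, chromosome 1, 94896949 to 94927223, minus strand) had 264, 266, 277, 268 and 256 CPM in T24 and 245, 258, 262, 257 and 257 CPM in T24R2. Both overlapped between the lines and neither was called. The log2 fold change of CNN2 was -0.07 (95% interval -0.15 to 0.02, adjusted p = 0.15) and that of CNN3 was -0.06 (-0.14 to 0.03, adjusted p = 0.22), both by edgeR's quasi-likelihood test. The exact two-sided permutation test of CPM gave p = 0.151 for CNN2 and p = 0.0476 for CNN3, and p = 0.587 for TPM2 and p = 0.563 for TPM4. With no scaling beyond library size both values, and that of TPM2, turned positive and stayed uncalled (0.09 for CNN2, 0.11 for CNN3 and 0.11 for TPM2), while the median of all genes moved to 0.18.

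**Figure D2:**
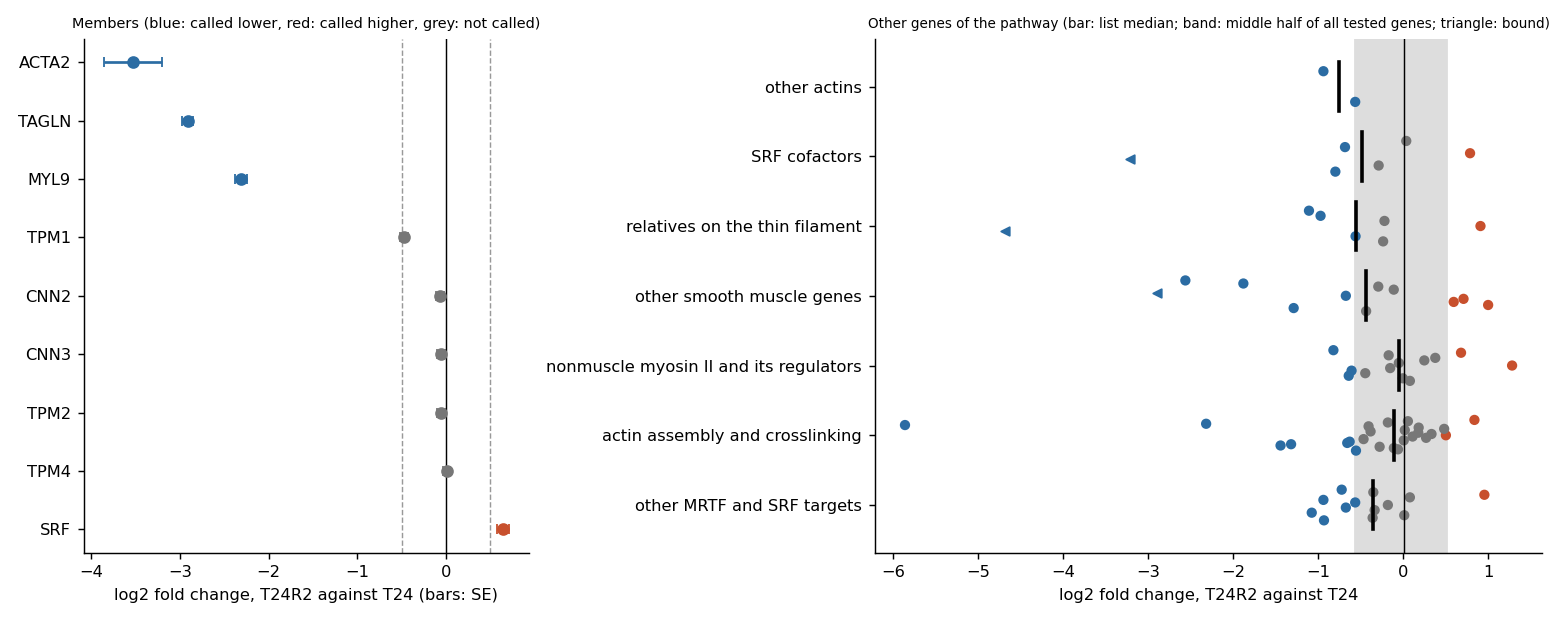
Log2 fold changes of T24R2 against T24 for the 9 tested genes, with SE (left, dashed lines at the fold change minimum of 0.5), and for the tested genes of 7 lists around the pathway (right). Blue points were called lower, red called higher and grey not called, a black bar is the median of a list, the thin line and grey band are the median and quartiles of all tested genes, and triangles are bounds for genes with no T24R2 library above 3 counts. ACTA2, TAGLN and MYL9 lie beyond -2, while 5 of the 9 genes lie within 0.5 of 0.

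To compare levels between genes, CPM was divided by the exon length in the count tables, giving RPKM (CPM per kilobase of exon). In T24 the order from the top was TPM2 (122 RPKM), CNN3 (95.6), TPM4 (88.3), CNN2 (83.0), MYL9 (38.1), TAGLN (32.0), TPM1 (31.8), SRF (11.4), ACTA2 (1.76) and CNN1 (0.0221). TPM4 and CNN2 overlapped over libraries, as did TAGLN and TPM1. In T24R2 it was TPM2 (118), CNN3 (91.9), TPM4 (88.8), CNN2 (79.2), TPM1 (23.0), SRF (17.9), MYL9 (7.64), TAGLN (4.24), ACTA2 (0.148) and CNN1 (0.00628), where only CNN3 and TPM4 overlapped. SRF, per length, thus moved from rank 8 to rank 6, above MYL9 and TAGLN. The exon length merges all transcripts of a gene, and for TPM1 and TPM4 it is 13765 and 12375 bases against 1217 and 2474 for the canonical transcript. With canonical lengths, chosen after the values were seen, TPM4 led in both lines (442 and 444 RPKM), followed by TPM1 (359) and TPM2 (326) in T24 and by TPM2 (315) and TPM1 (259.7) in T24R2.

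TAGLN and MYL9 also took a smaller share of their families in T24R2. TAGLN made up 10.1% ± 0.770 of the transgelin signal in T24 and 2.17% ± 0.112 in T24R2 (RPKM), with no overlap, while TAGLN2, the widely expressed transgelin, went from 88.6% to 97.8% although its own level was called lower (634 ± 22.8 to 431 ± 16.4 CPM, log2 fold change -0.56). TAGLN3, the neuronal form, had 7.13 ± 1.41 CPM in T24 and 0 counts in every T24R2 library, at least 25.7-fold lower by the floor per library. MYL9 was 9.42% ± 0.537 of the regulatory light chains in T24 and 2.94% ± 0.272 in T24R2, with MYL12A and MYL12B taking the rest. These genes are near-identical copies, so the split between them is uncertain. In level, MYL12A was at 409 ± 14.5 and 301 ± 13.3 CPM and was not called (-0.44), and MYL12B was called lower, at 402 ± 10.8 and 265 ± 10.2 CPM (-0.60).

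Among tropomyosins, TPM1 held 11.4% ± 0.678 of the family's RPKM in T24 and 8.80% ± 0.792 in T24R2, without overlap on this scale, with canonical lengths or in CPM. TPM2 held 43.6% and 44.8% and overlapped on each scale. TPM3 (13.5% and 12.4%) overlapped as well, with a log2 fold change of -0.23 that was not called. TPM4 held 31.5% and 34.0%, which overlapped, but its share was apart with canonical lengths (36.5% and 40.9%) and in CPM (43.8% and 48.2%). The calponins kept their balance, with CNN2 at 46.5% ± 1.62 and 46.3% ± 1.14 and CNN3 at 53.5% ± 1.64 and 53.7% ± 1.14. CNN2 held the larger share with canonical lengths (51.2% and 51.1%) and in CPM (53.1% and 53.0%), so their order depends on the scale.

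**Figure D3:**
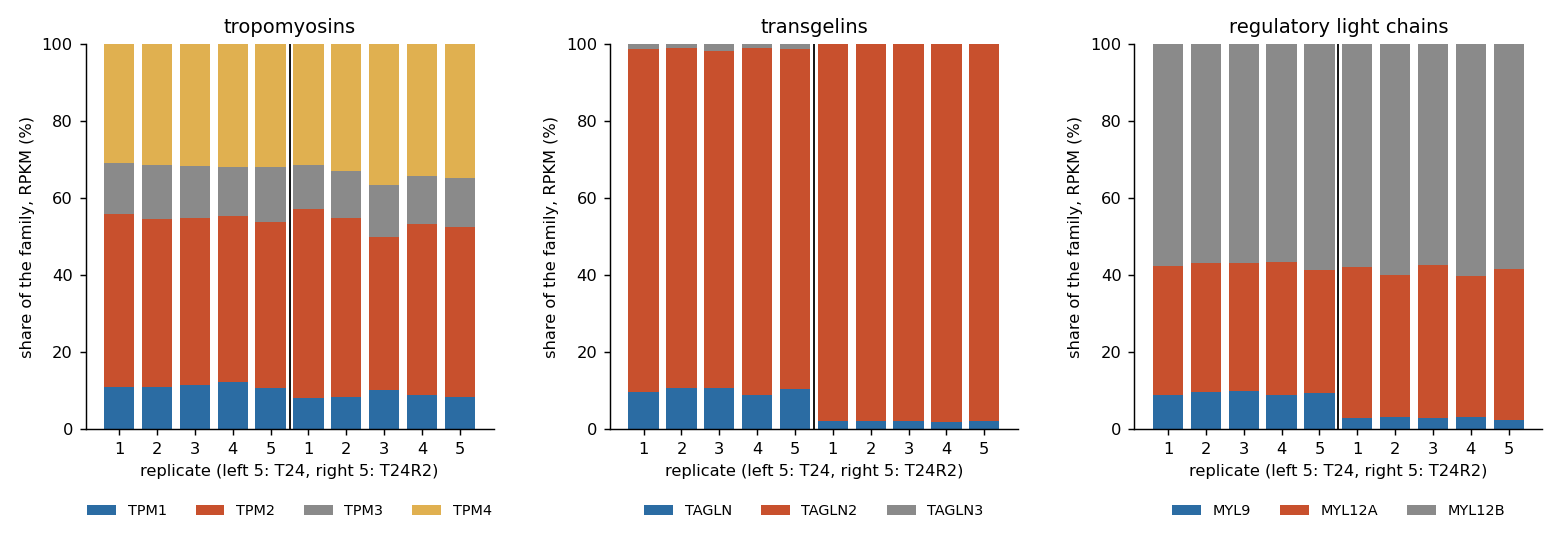
Share of each gene in the summed RPKM of its family (y axis, percent) for the 10 libraries (x axis, T24 left of the line and T24R2 right of it). TAGLN and MYL9 take a visibly smaller part of each T24R2 bar, TPM1 a slightly smaller one, and the TPM2 part varies most between T24R2 replicates.

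ACTA2 was a trace of the actin pool in both lines, at 0.0754% ± 0.0172 of actin RPKM in T24 and 0.0103% ± 0.00658 in T24R2. The cytoplasmic actins ACTB and ACTG1, which build the filaments of nonmuscle cells, made up nearly all of it, and both were called lower. ACTB went from 5845 ± 294 to 3959.8 ± 285 CPM (log2 fold change -0.56 ± 0.04, adjusted p = 7.6e-15) and ACTG1 from 4059 ± 152 to 2122 ± 148 CPM (-0.94 ± 0.04, adjusted p = 4.0e-22), both by edgeR's quasi-likelihood test. ACTG1 and ACTB share long stretches of sequence, so reads may have been split between them, and ACTB was not called with no scaling or with upper-quartile normalization. ACTA1, ACTC1 and ACTG2, the other muscle actins, were not tested, with means under 1 CPM in both lines.

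The 79 other genes of 7 lists around the pathway (72 tested) were called at the same total rate as all genes, 51.4%. Of the 72, 10 were higher, 27 lower and 35 not called. Over all tested genes 24.9% were higher and 26.5% lower, so lower calls made up more of the total in these lists. Their median log2 fold change was -0.29, against 0.01 for all tested genes. The lists share a few genes, each counted once here. By list, the share called was 100% of the 2 other actins tested, 66.7% of the SRF partners and 71.4% of the thin filament relatives. It was 72.7% of other smooth muscle genes, 38.5% of myosin II genes, 36.0% of assembly genes and 53.8% of other MRTF and SRF targets. These shares, of 2 to 25 tested genes, stand beside 51.4% of all tested genes. The lists and members were chosen with earlier results of these data known, so these counts are a description.

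Of the 6 partners of SRF, ELK1 was called higher and MRTFA, ELK3 and MYOCD lower, and the median log2 fold change was -0.48. MRTFA, the coactivator that is released when actin monomers are used up, had 43.5, 38.9, 36.7, 38.9 and 41.8 CPM in T24 and 24.8, 18.9, 28.9, 23.1 and 19.7 CPM in T24R2 (-0.80 ± 0.09, adjusted p = 2.9e-10, edgeR quasi-likelihood test). The lines did not overlap, in the opposite direction to SRF. MRTFB, its relative, overlapped and was not called (42.8 ± 4.01 and 35.1 ± 4.04 CPM, -0.29).

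MYOCD, which encodes myocardin, the smooth muscle and heart coactivator, was counted in every T24 library at 1.94 to 3.76 CPM and in no T24R2 library, at least 9.22-fold lower by the floor per library. ELK3 went from 114 ± 7.24 to 70.8 ± 3.11 CPM (-0.68) and ELK1, which competes with the MRTFs for SRF, from 47.2 ± 3.73 to 81.7 ± 3.51 CPM (0.79). ELK4 was not called (57.4 ± 4.89 and 58.9 ± 1.68 CPM, 0.04). SRF and ELK1 were thus higher, and MRTFA, ELK3 and MYOCD lower, in each T24R2 library than in any T24 library. Of all tested genes, 61.2% were apart between the lines in this way, in either direction.

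**Figure D4:**
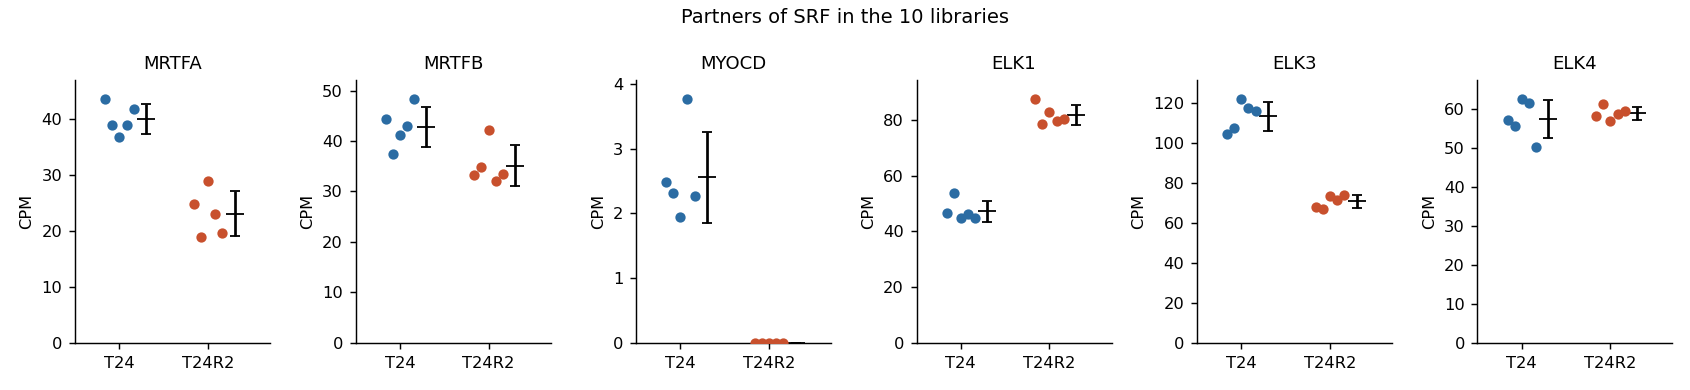
CPM (y axis, from 0) of the 6 partners of SRF in the 5 T24 libraries (blue) and the 5 T24R2 libraries (red), with mean and SD. MRTFA, MYOCD and ELK3 are lower in every T24R2 library and ELK1 is higher, while MRTFB and ELK4 overlap.

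Thin filament relatives of the members had 1 gene called higher and 4 lower of 7 tested, with a median of -0.56. The gene that rose was CALD1, caldesmon, an actin and tropomyosin binder of smooth muscle and nonmuscle cells, from 161 ± 7.97 to 304 ± 9.81 CPM (0.91 ± 0.05, adjusted p = 6.7e-21, edgeR quasi-likelihood test). The filament end caps TMOD3 (-1.11) and TMOD2 (-0.97) fell with TAGLN2 and TAGLN3. TPM3 and TMOD1 were not called (-0.23 and -0.22).

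Other smooth muscle genes were mixed, with 3 called higher and 5 lower of 11 tested and a median of -0.43. LPP, a focal adhesion protein, rose by 0.71, SYNM, the intermediate filament synemin, by 0.60, and SYNPO2, an actin-binding protein of the Z-disc, by 1.00, although its libraries overlapped (0.843 ± 0.356 and 1.69 ± 0.393 CPM). SMTN, or smoothelin, went from 177 ± 15.2 to 72.7 ± 2.52 CPM (-1.29), and TGFB1I1, the focal adhesion adaptor Hic-5, from 161 ± 5.87 to 101 ± 5.65 CPM (-0.67). MYLK, the kinase that phosphorylates MYL9, went from 5.25 ± 1.99 to 1.42 ± 0.522 CPM (-1.88), FILIP1L changed by -2.56, and CRIP1 was at least 7.43-fold lower by the floor per library. MYH11, the smooth muscle myosin heavy chain, was low in both lines and not called (4.51 ± 0.751 and 3.33 ± 0.236 CPM, -0.43), and DES was at the floor in both.

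For nonmuscle myosin II and its regulators, 2 of 13 tested genes were called higher and 3 lower, with a median of -0.05. PPP1R12B, a targeting subunit of myosin phosphatase, rose by 1.28 and the small GTPase RHOB by 0.68, while RHOC fell by 0.82, and MYL12B by 0.60. MYL6, the essential light chain, fell by 0.64. The heavy chain MYH9 was not called (0.08).

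Genes of actin assembly and crosslinking had 2 called higher and 7 lower of 25 tested, with a median of -0.11. FLNC, the muscle filamin, showed the steepest fall of the list, from 330.0 ± 24.4 to 5.70 ± 1.00 CPM (-5.86 ± 0.08), and the bundling protein FSCN1 followed, from 734 ± 23.5 to 148 ± 4.41 CPM (-2.32 ± 0.04). ZYX, zyxin of focal adhesions, rose by 0.84, and ACTR2 of the Arp2/3 complex by 0.50. The call of ACTR2 was lost with DESeq2, with its size factors, and without replicate 1 or 4 of T24 or replicate 2 of T24R2. FLNA and ACTN1, abundant crosslinkers of nonmuscle cells, were not called (0.19 and 0.02).

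Other targets of MRTF and SRF had 1 called higher and 6 lower of 13 tested, with a median of -0.36. TUFT1 rose by 0.96. CCN1, a secreted matrix protein, fell by 0.93, and ACTG1, FHL2 (-1.07), TGFB1I1, JUNB (-0.72) and ACTB fell as well. CCN2 (-0.36) and the immediate early gene EGR1 (0.01) were not called.

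The markers of other cell types that could carry ACTA2, TAGLN or MYL9 were summed per library. Fibroblast markers (9 genes) summed to 9.83 to 11.9 CPM in T24 and 0.954 to 2.29 in T24R2, where only PDGFRB (3.43 to 0 CPM) and COL1A1 (6.45 to 1.03) exceeded 1 CPM in a line. DCN, LUM and COL1A2 had 0.0216 CPM or less in either line. Smooth muscle and pericyte markers (7 genes) summed to 14.0 to 21.9 CPM in T24 and 7.40 to 9.14 in T24R2, with DES and NOTCH3 at the floor in both lines, CSPG4, KCNJ8 and MYOCD called lower and RGS5 called higher. Endothelial markers (4 genes) summed to 225 to 278 CPM in T24 and 1.60 to 2.50 in T24R2. CDH5 was nearly all of the sum in T24 (239 CPM) but not in T24R2 (0.559 CPM). PECAM1 and CDH5 were both called lower, while VWF was under 1 CPM and KDR at the floor in both lines. Leukocyte markers (4 genes) summed to 0.229 to 0.864 and 0.295 to 2.69 CPM. The fibroblast, endothelial and smooth muscle sums were thus lower in every T24R2 library, as ACTA2, TAGLN and MYL9 were, and their part in these results was not tested.

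Fragments were assigned by the strand of the first read, while the kit is not described as strand-specific, so reads of a member and of a gene overlapping it from the opposite strand cannot be told apart. Genes lying wholly inside a member's exons on the other strand had high counts, such as ENSG00000279753 inside CNN2 (188 RPKM in T24, against 83.0 for CNN2, or 141 with its canonical length) and ENSG00000259627 inside TPM1 (81.5 against 31.8, or 359 with the canonical length, which turns the order round). TAGLN shares 2233 exon bases, 34.1% of its exons, with PCSK7, a proprotein convertase gene on the opposite strand. PCSK7 fell as well, from 147 ± 13.2 to 26.8 ± 1.996 CPM (log2 fold change -2.46 ± 0.06, adjusted p = 4.0e-30, edgeR quasi-likelihood test). The shared bases are 10.1% of the exons of PCSK7, so taking off all its counts can remove more than the overlap holds. If all PCSK7 counts are taken off, TAGLN is left with 62.7 ± 12.9 CPM in T24 and 1.16 ± 1.05 in T24R2. There 1 T24R2 library is at 0, and the log2 ratio is -5.76. The direction is the same in this extreme case, and the size of the change without PCSK7 reads was not determined.

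ACTA2 shares 516 exon bases (17.3%) with ACTA2-AS1 and 380 (12.8%) with FAS, the death receptor gene. ACTA2-AS1 changed by nearly the same amount as ACTA2, from 3.15 to 0.262 CPM (-3.55 ± 0.45), and FAS from 29.8 to 18.1 CPM (-0.72 ± 0.10). All counts of ACTA2-AS1 and FAS together exceed those of ACTA2, so taking all of them off gives no value. The shared bases are 16.2% of the exons of ACTA2-AS1 and 1.99% of those of FAS, and a partial subtraction was not made. For TPM1, taking off TPM1-AS and ENSG00000259627 moved the log2 ratio to -0.55, past the minimum of 0.5, but no test was made on this ratio. Of the exons of these genes, 78.5% and 100% lie inside those of TPM1, so the step can remove reads of TPM1 itself. CNN2 and TPM4 moved to -0.06 and -0.00. ACTA2 and TAGLN also overlap genes on their own strand, ENSG00000286116 (-0.92) and ENSG00000280143 (-1.56), while MYL9, SRF, TPM2, CNN3 and CNN1 overlap none.

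**Figure D5:**
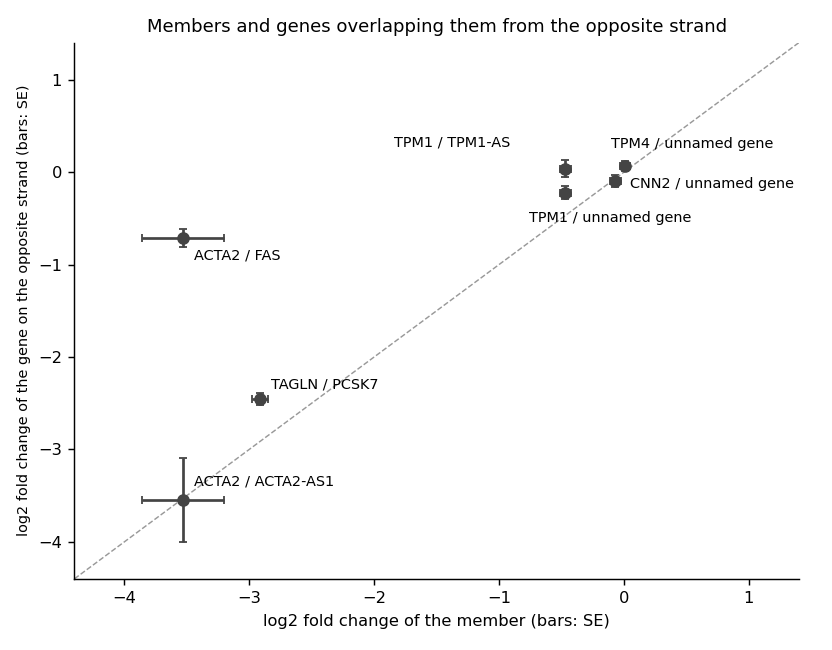
Log2 fold change (T24R2 against T24, bars SE) of members (x axis) and of the genes that overlap their exons from the opposite strand (y axis), with a dashed line of equality. ACTA2-AS1 and PCSK7 lie near ACTA2 and TAGLN, whereas FAS lies far above the line and the partners of TPM1, CNN2 and TPM4 are close to 0.

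The closest tested genes to the left and right of each member were listed to show what lies around them. Of these 20 neighbours, 2 were called higher, 7 lower and 11 not called, with a median log2 fold change of -0.08. Among all tested genes 24.9% were called higher and 26.5% lower. Both neighbours of TAGLN fell, SIDT2, a lysosomal membrane protein gene, by 2.14 and RNF214 by 1.61. A neighbour of MYL9 was called lower (DLGAP4, -1.21) and the other not called (TGIF2, 0.14). SRF lies between PTK7 (-0.86, called lower) and CUL9 (41.0 to 50.8 CPM, 0.31 with an adjusted p of 8.7e-05 by the edgeR quasi-likelihood test, under the fold minimum and so not called). Within 500 kb, a window chosen after the values were seen, all 11 other tested genes around TAGLN, PCSK7 and ENSG00000280143 among them, were called lower, with a median of -1.56 and a range of -2.46 to -0.56, against 26.5% of all tested genes called lower. Around ACTA2 4 of 10 were called lower and 0 higher. Those lower include ACTA2-AS1, FAS and ENSG00000286116, which share exon bases with ACTA2. Around MYL9 4 of 14 were called lower and 1 higher, and around SRF 4 of 38 lower and 11 higher.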

How the data were processed

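Reads were mapped by the authors to hg38 (STAR 2.7.0), filtered to unique alignments with duplicates removed (samtools 1.10) and assigned to GENCODE 39 genes (featureCounts 2.0.1, strand option 1). The deposited values are raw counts, neither normalized nor pooled. Symbols were found for 61369 of 61533 genes.

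The lines were compared with edgeR 4.0.16 in R 4.3.3 (default filterByExpr, TMM scaling, glmQLFit, glmQLFTest) on all 10 libraries and 16181 genes, with Benjamini-Hochberg adjustment over all of them. The call limits, 0.05 for the adjusted p and 0.5 for the log2 fold change, are those in the study's methods. The common biological coefficient of variation was 6.61%. Intervals (95%) are the fold change with its SE on a normal scale. Single genes were also compared by an exact two-sided permutation test of CPM. RPKM used the exon lengths in the tables. In each of the 20 pairs of replicates the counts differed beyond sampling noise (chi-square over its degrees of freedom, 1.99 to 6.51). Removal of duplicates may lower the counts of abundant transcripts.

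Exon overlaps used bedtools 2.31.1, and promoter windows came from the RefSeq table of GRCh38.p14. Other steps used Python 3.11.15, pandas 2.3.3, SciPy 1.17.1 and matplotlib 3.10.9. The fits were tested on simulated counts with known changes.

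The members and lists were chosen with earlier results of these data known. The genes named are the members, ACTB, ACTG1, TPM3, TAGLN2, CALD1, MRTFA, MRTFB, MYOCD, MYH11, DES and MYL6, the 2 rises and 2 falls of each list with the smallest adjusted p, genes overlapping a member, the nearest tested gene on each side, and markers of other cell types at 10 CPM or more. Other genes were named after their values were seen. Some results that this rule covers are not reported here. Alternatives were no scaling, upper-quartile normalization, DESeq2 1.42.0 with and without shrinkage or its size factors in edgeR, limma-voom (limma 3.58.1), other filters and fold minimums, a replicate block and leaving out each library.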

Additional observations from a re-analysis of the deposited data

Results flagged for a closer look

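A library stood apart from the other 4 of its line in 2 of 30 comparisons of CPM or of family share, where 1.5 would be found by chance at 1 in 20. CNN1 had 0.0891 CPM in replicate 4 of T24R2, which is 1 count, and 0 in the other 4 libraries. Any count stands apart where the others have 0, so the rate of 1 in 20 does not hold for CNN1. CNN3 had 245 CPM in replicate 1 of T24R2, below the 257 to 262 CPM of the others. The log2 fold change of CNN3 ran from -0.07 to -0.04 as each library was left out, and it was not called.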

How the results depend on the processing

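ACTA2, TAGLN, MYL9 and SRF kept their direction and call as each library was left out, with log2 fold changes of -3.87 to -3.29, -2.98 to -2.88, -2.34 to -2.25 and 0.61 to 0.69. With genes of a mean of at least 100 counts, 2350 were called higher and 2641 lower, ACTA2 was not tested, and fewer genes were tested. With no fold minimum, 6128 genes were called higher, and TPM1 joined the 3 members called lower. With a log2 fold change over 1, 1918 genes were called higher and 2293 lower, and 0 members were called higher, since SRF rose by less. With no scaling beyond library size, 5206 genes were called higher and 3431 lower and the median of all genes was 0.18, but the same 4 members were called. That setting took the lower calls from 2 to 1 among other actins, from 3 to 1 among myosin II genes and from 7 to 4 among assembly genes. Replicate numbers are shared by both lines, but same-numbered libraries did not deviate together (correlations -0.02 to 0.02), and 1 T24 library correlated best with its own number. With a replicate block, 3979 genes were called higher and 4261 lower, and 1 member higher and 3 lower. Depth limits ACTA2 and CNN1, and differences between values under the floor of 3 counts per library were not detectable at this depth.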
